A study of Mus musculus with 4 samples.

Results

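Endothelial cells that remained in lung cells sorted against CD31 were described here. CD31 is the protein of Pecam1, the endothelial adhesion molecule on which the sort was made. A barcode was counted as an endothelial cell when it had at least 500 genes, at most 10% of its unique molecular identifiers (UMIs) from mitochondrial genes, a UMI from at least 3 of the 6 endothelial genes Pecam1, Cdh5, Cldn5, Egfl7, Ramp2 and Tie1, and no UMI of Ptprc (the leukocyte gene of CD45) or Epcam (the epithelial surface gene). This rule found 68 cells among 9391 kept barcodes, a share of 0.724% (exact Clopper-Pearson 95% interval 0.563 to 0.917). None of the 68 had 3 or more UMIs of Myh11, the smooth muscle myosin heavy chain, and 1 cell had 1 UMI of it, so no muscle-bearing set had to be set apart. Because these cells were chosen by the 6 genes, the levels of those genes are given as a description.

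The cells came from lungs of mice of about 8 weeks that carried 1 copy of Gli1-CreERT2, a tamoxifen-activated Cre recombinase at the locus of the hedgehog target gene Gli1, and, on 1 allele of Rosa26, the mTmG reporter. All mice had been dosed with tamoxifen. The reporter makes membrane TdTomato until Cre has acted and membrane Egfp afterwards. The Gli1 locus drives the Cre, so the reporter marks cells that had expressed Gli1 at dosing. The sort kept cells without CD45 or CD31 on their surface. One field of the labels gives the strain as B6D2F1/J and another as C57BL/6J, so the background of the mice is uncertain. The 4 samples carry the same labels and form 1 group, with no control group among the samples used here. Their reads were joined in 1 matrix whose barcodes have 1 suffix, and no map from cells to samples was used here. All cells were therefore treated as 1 sample, no test was run between groups, and the intervals cover counting error alone.

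Lung capillaries form a sheet of endothelium against the alveolar wall. In the mouse, this sheet is a mosaic of aerocytes (aCap), large Car4-positive and Ednrb-positive capillary cells that lie where gas is exchanged, and general capillary cells (gCap), which carry Gpihbp1, Plvap and Aplnr and can divide after injury. Aerocytes make the peptide apelin, and general capillary cells carry its receptor. Endothelial identity is held by transcription factors of the ETS, SOX and GATA families, and cell contacts by VE-cadherin (Cdh5) and claudin 5 (Cldn5).

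Promoters of genes that mark these cells are printed because ETS factors, several of which were higher in these cells than in others (below), bind a core of GGAA. Windows of 300 bases, 250 before and 50 after a start, were taken from RefSeq (build GRCm38.p6). Both AGGAAG and CGGAAG were searched on both strands, and a match, or its reverse complement, is in capitals; no matches overlap in the printed windows. A match was found in 46.5% of 32851 mouse promoters of this length. Promoters were at hand for 3 of the 6 selecting genes, Cldn5, Tie1 and Egfl7, and for Car4, the leading aerocyte marker. The window of Cldn5 held no match, that of Tie1 held 3 (a number reached or passed by 4.71% of promoters), and that of Car4 held 1. A promoter was in the table for 8 of the 12 genes of the capillary lists used below. Of these, Car4 and the aerocyte gene Ednrb were searched, and the window of Ednrb held no match. The windows of the 3 Egfl7 starts held 3, 2 and 0 matches in order of position, and the middle one is printed (2 or more matches were in 15.9% of promoters).
Cldn5, chr16:18776597-18776896, plus strand: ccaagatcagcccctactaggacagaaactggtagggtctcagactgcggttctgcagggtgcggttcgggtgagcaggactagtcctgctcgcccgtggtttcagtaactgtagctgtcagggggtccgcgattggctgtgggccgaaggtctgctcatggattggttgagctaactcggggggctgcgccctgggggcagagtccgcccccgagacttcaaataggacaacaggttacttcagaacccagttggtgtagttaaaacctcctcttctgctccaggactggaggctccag
Tie1, chr4:118489800-118490099, minus strand: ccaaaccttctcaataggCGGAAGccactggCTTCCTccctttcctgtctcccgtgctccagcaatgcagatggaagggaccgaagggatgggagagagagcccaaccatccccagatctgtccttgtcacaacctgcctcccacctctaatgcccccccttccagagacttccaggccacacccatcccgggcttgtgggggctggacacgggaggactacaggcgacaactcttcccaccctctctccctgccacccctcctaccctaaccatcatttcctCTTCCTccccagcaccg
Egfl7, chr2:26583615-26583914, plus strand: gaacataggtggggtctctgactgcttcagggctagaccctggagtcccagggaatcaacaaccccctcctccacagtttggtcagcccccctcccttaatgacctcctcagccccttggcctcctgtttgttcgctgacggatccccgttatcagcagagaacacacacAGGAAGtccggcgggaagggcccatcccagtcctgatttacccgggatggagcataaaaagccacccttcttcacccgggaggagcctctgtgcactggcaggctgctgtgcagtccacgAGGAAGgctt
Car4, chr11:84957504-84957803, plus strand: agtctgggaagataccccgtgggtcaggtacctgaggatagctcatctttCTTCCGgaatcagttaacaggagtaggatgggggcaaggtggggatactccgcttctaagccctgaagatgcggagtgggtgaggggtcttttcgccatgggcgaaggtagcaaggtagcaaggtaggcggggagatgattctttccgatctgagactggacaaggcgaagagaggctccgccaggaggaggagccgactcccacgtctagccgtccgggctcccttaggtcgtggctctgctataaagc

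Egfl7 also hosts miR-126, a microRNA known for its abundance in endothelium. Its mature 3p arm lies within Egfl7 on the same strand at chr2:26591402-26591423 (RefSeq, GRCm38.p6) and is shown with its seed, bases 2 to 8, in capitals. The libraries counted polyadenylated 3′ ends, so Egfl7 was measured and the microRNA was not.
mmu-miR-126a-3p: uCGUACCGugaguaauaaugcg

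Ramp2, the partner protein of the adrenomedullin receptor, was detected in 68 of 68 cells with 929 UMIs. It is itself a selecting gene, and the 6 cells with 3 selecting genes had 6 UMIs of it in all. Cldn5, the tight junction protein, gave the most UMIs, 1303 in 64 cells. Egfl7, a secreted vascular matrix protein, had 647 UMIs in 65 cells, and Cdh5 had 420 UMIs in 64 cells. Pecam1, whose protein was used to remove such cells, had 233 UMIs in 55 of 68 cells (80.9%, interval 69.5 to 89.4). The receptor tyrosine kinase gene Tie1 was the sparsest, with 69 UMIs in 36 cells. Per 10000 UMIs of a cell, Pecam1 ran from 0 to 20.2 with a median of 7.28, and Cldn5 ran from 0 to 207 with a median of 43.2. Summed Pecam1 stood at 613 CPM (UMIs of a gene per 1000000 UMIs of the set) in endothelial cells, 25.4 CPM in muscle cells, 9.83 CPM in leukocyte cells, 1.62 CPM in fibroblast cells and 1.19 CPM in epithelial cells. These other classes were drawn from kept cells with under 3 of the selecting genes detected. They were set by counts, in order Myh11 of at least 3, then Epcam, then Ptprc, then at least 3 fibroblast gate genes. The 5 fibroblast gate genes were Col1a1, Col1a2, Col3a1, Dcn and Pdgfra. The 24 cells left outside for an Epcam or Ptprc UMI held 170 Pecam1 UMIs, against 32 in epithelial cells. The selecting genes thus partly fixed each side of the Pecam1 contrast, and its levels and shares are a description. With each cell thinned to 2000 UMIs, Pecam1 was detected in 61.8% of the 55 endothelial cells deep enough, against 0.306% of 6216 fibroblast cells and 0.275% of 2185 epithelial cells.

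**Figure D1:**
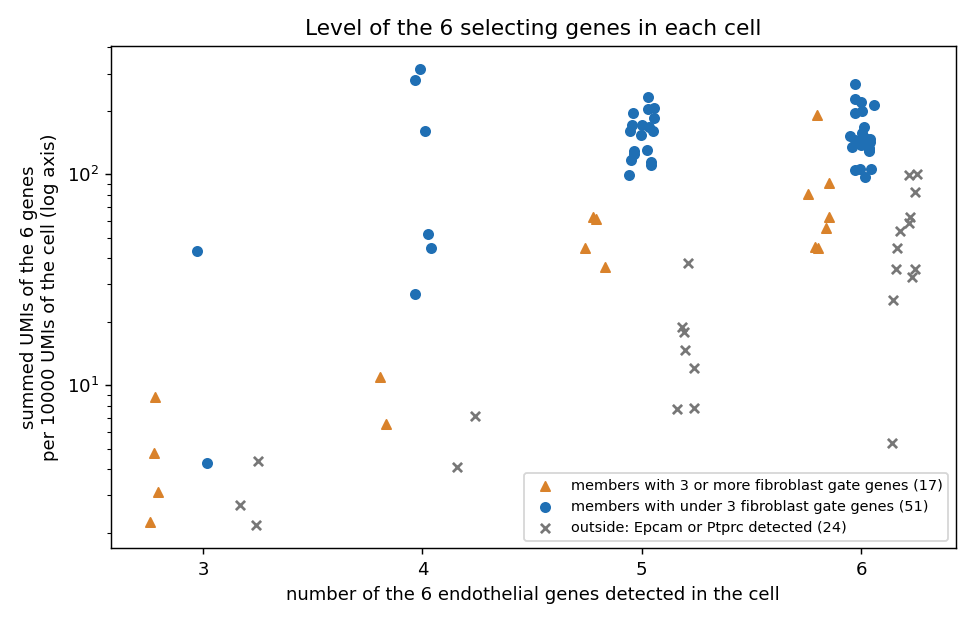
Summed UMIs of the 6 selecting genes per 10000 UMIs of the cell (log axis) by the number of those genes detected, for the 17 endothelial cells with 3 or more fibroblast gate genes, the 51 with fewer, and the 24 cells left outside for an Epcam or Ptprc UMI. The 51 cells have a median of 146, and 5 of the 6 cells with 3 genes sit under 10.

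The number of genes detected was 3 in 6 cells, 4 in 8, 5 in 22 and 6 in 32. Among all kept barcodes, 6103 had none of the 6 genes, 3035 had 1 and 161 had 2. Just inside the threshold, the 6 cells with 3 genes had a median of 4.53 selecting UMIs per 10000 (2.24 to 43.4). Just outside it, the 161 cells with 2 genes had a median of 2.81 (0.817 to 13.1), and 146 of them had Ramp2, a gene also detected in 40.1% of fibroblast cells. The 8 cells with 4 genes had a median of 48.4 and ranged widely, from 6.56 to 316. Cells with 6 genes reached a median of 138, and those with 5 reached 142.

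Total UMIs per endothelial cell ran from 699 to 19223, with a median of 4052.5, while the 9323 other kept cells had a median of 8200. In 17 of the 68 cells, at least 3 of the 5 fibroblast gate genes were detected, and these had a median of 9912 UMIs, against 3287 UMIs in the 51 cells with fewer. Scrublet, a caller of doublets (droplets with more than 1 cell), marked 6 of the 17 and 1 of the 51. The 8-gene fibroblast list ran from 10.6 to 506 UMIs per 10000 in the 17 (median 123) and from 0 to 18.7 in the 51 (median 0). All 8 list genes had a UMI in the 17, and 7 of 8 in the 51. Selecting genes had a median of 44.7 per 10000 in the 17 and 146 in the 51. More genes are detected in a deeper cell, and the selecting genes are those of the rule, so these values are a description. Results below are given with and without the 17 cells where they differ. Whether such cells are doublets or carry free RNA was not tested.

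**Figure D2:**
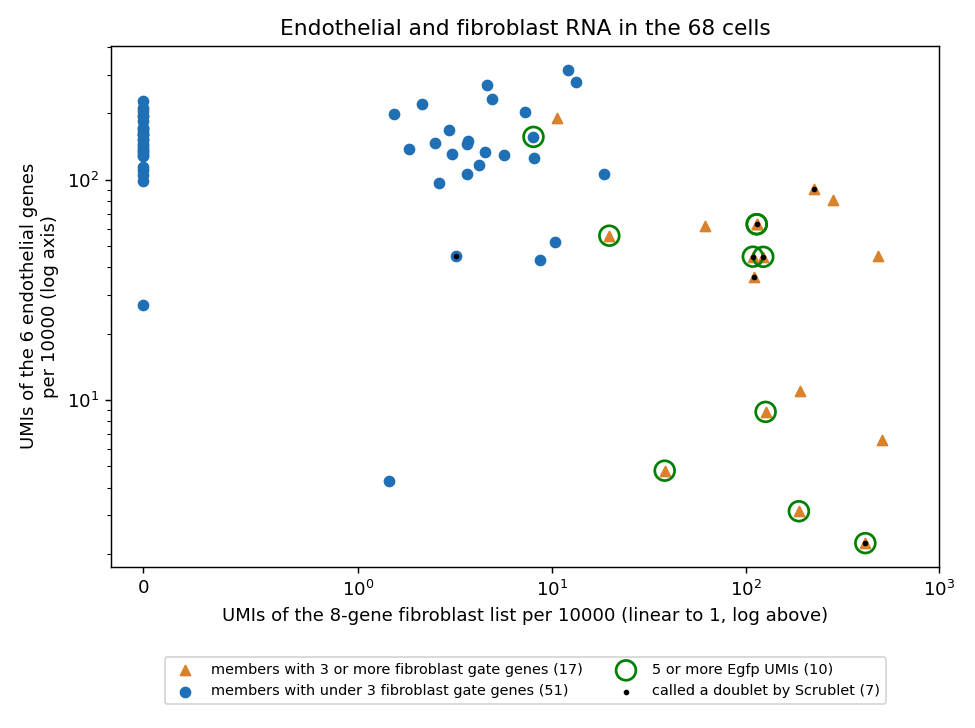
UMIs of the 6 selecting genes per 10000 (log axis) against UMIs of the 8-gene fibroblast list per 10000 (linear to 1, log above) in the 68 endothelial cells; rings mark the 10 cells with 5 or more Egfp UMIs and dots the 7 Scrublet doublets. Cells with 3 or more fibroblast gate genes have a median of 44.7 selecting UMIs per 10000, against 146 in the others, with 1 of them at 190, and hold 9 of the 10 ringed cells.

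RNA of other cell types was measured by lists of their markers. Ptprc had no UMI by the rule, and of the other 7 leukocyte genes 5 had none and 2 had 1 UMI each. The 5 erythroid genes had none. The 7 smooth muscle genes summed to 59 UMIs, with Actg2 and Lmod1 at 0, and the 8 pericyte genes to 23 UMIs, with Cspg4 and Kcnj8 at 0. The alveolar type 1 list, with 5 genes, stood at 1637 CPM in the 68 cells and 1672 CPM in other kept cells. It stood at 2418 CPM in the 51, where 1 cell held 158 of its 478 UMIs. Its UMIs lay in 53 of the 68 cells, and Hopx, a gene that other cell types express too, was the member above other kept cells (ratio 2.87). Mesothelial genes stood at 158 CPM in endothelial cells and 202 CPM in other kept cells, with 56 of their 60 UMIs in 1 cell. All 141 UMIs of the 5 proliferation genes were in 1 cell. Alveolar type 2 RNA was present in 67 cells at a median of 11.3 UMIs per 10000. Its main gene Sftpc, which encodes surfactant protein C, had a UMI in 94.1% of endothelial cells and in 96.3% of fibroblast cells and 98.6% of leukocyte cells, so a low level was common to these types. The medians of Sftpc were 8.79 per 10000 in endothelial cells, 4.84 in fibroblast cells and 5.77 in leukocyte cells, at median depths of 4052.5, 7517 and 6822 UMIs. In 3 endothelial cells the type 2 list passed 100 per 10000. The highest of them, at 1756, was a cell with 3 selecting genes and 4.29 selecting UMIs per 10000. Those 3 cells stay in the counts, and the part of this RNA in them was not tested.

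Summed over the 68 cells, endothelial genes that had no part in the selection stood far above the other kept cells. The 9323 other kept cells include the 24 cells with 3 or more selecting genes and an Epcam or Ptprc UMI. Those 24 held 570 of the 647 Cldn5 UMIs and 293 of the 337 Cdh5 UMIs of the other kept cells. Ratios of endothelial genes therefore depend on them and are not ratios over cells free of endothelial RNA. Of 15011 genes given at least 30 UMIs by the 2 sets together, 2206 (14.7%) had a ratio of 2 or above in endothelial cells and 1579 (10.5%) one of 0.5 or below. The 6 selecting genes were left out, but they chose the cells by the same contrast, so these counts are a description. Endothelial cells held 379976 UMIs and other kept cells 83079470, so few endothelial UMIs can give a ratio of 2 or above. Both counts were far smaller when the interval had to lie past the fold, as given in the last section. The median ratio of all 15011 genes was 1.32, so a list is read against that value and not against 1. Genes without a UMI in endothelial cells enter this median as if they had 3 UMIs, an upper limit. The median was 1.97 with a gene minimum of 1 UMI and 1.19 with one of 100 UMIs. Among 2352 genes with at least 30 UMIs in endothelial cells it was 1.31. That minimum admits genes by their endothelial counts alone, so this median is no check of the 1.32. Without the 17 cells with fibroblast genes, the median of all genes was 1.60. List medians are given for both sets where they differ by over 1.5 times. The largest ratios among genes with at least 30 UMIs in endothelial cells were mostly those of known endothelial genes. Emcn, the sialomucin endomucin, had 135 UMIs in 48 of the 68 cells and 355 CPM in endothelial cells and 0.698 CPM in other kept cells (509-fold, interval 371 to 705). Adgrl4, an adhesion receptor of vessels, had 86 UMIs in 40 of the 68 cells (495-fold, interval 334 to 745). The fibroblast, epithelial, muscle and leukocyte classes had no UMI of Adgrl4, nor had the cells with under 3 selecting genes that fell in no class. Its 38 UMIs in other kept cells thus all lay in the 24 cells named above, which set its ratio. Icam2, an adhesion molecule of resting endothelium, had 399 UMIs in 56 of the 68 cells, 1050.1 against 2.29 CPM in other kept cells (459-fold, interval 385 to 549). Over single cells, Icam2 ran from 0 to 48.6 with a median of 9.21 per 10000.

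Sox17, a transcription factor of arterial and capillary endothelium, was 406-fold higher, interval 252 to 668, at 52 UMIs. Others among the 20 largest ratios were Tmem252 (469-fold), the semaphorin Sema3g (367-fold), the guidance receptor Robo4 (357-fold), the lectin receptor Clec1a (341-fold) and Myct1 (340.4-fold). Gpihbp1, which carries lipoprotein lipase to the capillary lumen, was 309.6-fold higher, interval 256 to 375, in 49 cells. Ctla2a had 596 UMIs in 62 cells (303-fold), and Rprml, Stmn2, Gimap4, Cyyr1 and She lay between 251 and 298-fold. The apelin receptor Aplnr was 246-fold higher, von Willebrand factor (Vwf) 219-fold, the hyaluronan receptor Lyve1 267-fold and the carbonic anhydrase Car4 215-fold. Aplnr was detected in 26 of the 68 cells, Vwf in 13, Lyve1 in 21 and Car4 in 25. Several others of these genes were also found in a minority of cells, Rprml in 13, Sema3g in 19, She in 23, Robo4 in 24 and Sox17 in 27.

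The lowest ratios, among genes of at least 200 CPM in other kept cells, belonged mostly to airway and plasma cell products. Scgb1a1, the main secretory protein of club cells, stood at 342 CPM in endothelial cells and 19699 CPM in other kept cells (ratio 0.0174, interval 0.0145 to 0.0206). It had a UMI in 73.5% of endothelial cells, close to 72% of fibroblast cells and 72.9% of leukocyte cells. Median depths of these sets were 4052.5, 7517 and 6822 UMIs, and whether this RNA was background was not tested. Igha and Bpifa1 had no UMI in endothelial cells, at 289.7 and 287 CPM in other kept cells, which sets their ratios to at most 0.0273 and 0.0275 against a floor of 3 UMIs over the set. Igkc, Scgb3a2, Cyp2f2, Scgb3a1, Mmp3, Lyz1, Cldn3, Hp and Atp1b1 made up the rest of the 12, with 1 to 9 UMIs each and ratios of 0.00283 to 0.0717.

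All 14 of 14 measured endothelial surface genes were at least 2-fold higher, with a median ratio of 157. Besides Emcn, Adgrl4, Icam2 and Robo4, the list held Calcrl, the receptor that pairs with Ramp2, at 1200.1 CPM in endothelial cells and 6.74 CPM in other kept cells (178-fold, interval 157 to 202). The sphingosine-1-phosphate receptor S1pr1 was 135-fold higher and the complement-like receptor Cd93 179-fold. The lowest members were Esam (14.3-fold, interval 12.5 to 16.3) and Adgrf5 (8.83-fold, interval 7.77 to 10.0). In epithelial cells these 2 stood at 90.4 and 186 CPM.

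Of 19 measured endothelial transcription factors, 16 were at least 2-fold higher and none was at most 0.5-fold, with a median of 12.3. After Sox17, the largest ratios were those of Sox18 (159-fold, interval 119 to 213), Gata2 (137-fold, interval 95.8 to 195) and the ETS factor Erg (77.6-fold, interval 35.2 to 159). Erg rested on 11 UMIs in 8 cells. Bcl6b was 58.9-fold and Hhex 56.1-fold higher, and the ETS factors Fli1 and Ets1 22.2-fold and 11.7-fold. By level, the shear-responsive factor Klf2 led with 1784 CPM, and was also found in other kept cells at 577 CPM. Epas1, which encodes the hypoxia factor HIF-2α, stood at 808 against 74.2 CPM in other kept cells (10.9-fold, interval 9.68 to 12.2). Foxf1, a factor of lung mesenchyme and capillaries, stood at 605 against 42.3 CPM. The 2 lowest were Foxo1 (1.37-fold, interval 0.911 to 1.99) and Nr2f2, which marks veins (0.609-fold, interval 0.447 to 0.810). Without the 17 cells with fibroblast genes, Nr2f2 was at 35.4 CPM and 1 factor of the list was at most 0.5-fold.

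In the VEGF and angiopoietin list, 7 of 13 genes were at least 2-fold higher and 1 was at most 0.5-fold, with a median of 2.83. The main VEGF receptors were among the higher genes, and Vegfc was the sole ligand among them. The VEGF receptor Flt1 stood at 429 against 2.02 CPM in other kept cells (212-fold, interval 170.0 to 265), Kdr at 671 against 17.8 CPM (37.7-fold, interval 32.9 to 43.1) and Flt4, the lymphatic and venous receptor, was 66.4-fold higher. Ptprb, the vascular phosphatase that acts on the angiopoietin receptor, was 204-fold higher and that receptor, Tek, 12.5-fold. Among ligands Vegfc was 6.14-fold higher, interval 4.12 to 8.81. Vegfa was at a ratio of 1.63, interval 1.35 to 1.96, and Angpt1 at 0.622, interval 0.362 to 0.997. Pgf was the member at most 0.5-fold, from 2 UMIs. Without the 17 cells, the list had 7 genes at a ratio of 2 or above and 3 at 0.5 or below.

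Of 11 Notch genes 7 were at least 2-fold higher and none at most 0.5-fold, with a median of 5.99 (9.60 without the 17 cells). The ligand Dll4 was 129-fold higher (interval 81.2 to 202), the receptor Notch4 60.9-fold (38.2 to 94), the ligand Dll1 52.6-fold and the target Nrarp 18.8-fold, each on 13 to 33 UMIs. Notch1 had more UMIs, 63 in 33 cells, and a smaller ratio of 5.71. Rbpj and Jag1 were lowest, at 0.843 and 0.642.

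In the BMP and TGF-beta list, 7 of 13 genes were at least 2-fold higher, 1 was at most 0.5-fold and the median was 2.74. Bmp6, a ligand by which liver endothelium controls iron, was 126-fold higher (interval 90.2 to 175). The endothelial receptors Eng and Acvrl1 stood at 632 against 36.4 CPM and 908 against 76.5 CPM, that is 17.3-fold and 11.9-fold higher, the type II receptor Bmpr2 was 6.21-fold higher and the inhibitor Smad6 18-fold. The TGF-beta receptor Tgfbr2 was at 0.644 (interval 0.479 to 0.847) and the target Id2 at 0.418 (interval 0.286 to 0.590).

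The junction list was mixed, with 8 of 17 genes at a ratio of 2 or above, 6 at 0.5 or below and a median of 2.15. The gap junction gene Gja4 was 211-fold higher, and the protocadherins Pcdh12 and Pcdh1 168-fold and 139.7-fold. Tjp1, which encodes the junction scaffold ZO-1, was 4.53-fold higher, interval 3.66 to 5.55. The epithelial genes Cdh1, Cgn and Cldn18 were at ratios of 0.129, 0.140 and 0.374. The arterial connexin gene Gja5 had 1 UMI, at a ratio of 0.219 (interval 0.00555 to 1.22), and N-cadherin (Cdh2) had none.

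Of 13 genes for caveolae and lipid uptake, 7 were at least 2-fold higher and 1 lay at or below 0.5-fold, with a median of 3.87. Plvap, which forms the diaphragms of caveolae, stood at 703 CPM in endothelial cells and 16.6 CPM in other kept cells (42.5-fold, interval 37.1 to 48.4). The caveolar genes Cav1, Cav2 and Cavin2 were 4.20-fold, 8.96-fold and 9.67-fold higher, the fatty acid transporter Cd36 5.24-fold and the water channel Aqp1 3.87-fold. Lpl, whose protein Gpihbp1 binds, was at 0.629 (interval 0.421 to 0.904), and Fabp5 at 0.476 (interval 0.375 to 0.597). Fabp4, a capillary gene in other organs, had 3 UMIs in 1 cell and Pparg none.

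Among 16 genes of vascular tone and clotting, 11 had a ratio of 2 or above and 1 of 0.5 or below, with a median of 5.92 (10.1 without the 17 cells). Hpgd, which inactivates prostaglandins, had the most UMIs of the list, with 677 UMIs in 58 of the 68 cells and 1782 against 20.8 CPM in other kept cells (85.6-fold, interval 78.2 to 93.6). The endothelin receptor gene Ednrb was 40.8-fold higher, in 19 cells, and angiotensin converting enzyme (Ace) 27-fold, in 52 cells. Nos3, the endothelial nitric oxide synthase, gave 5 UMIs (11.5-fold, interval 3.65 to 27.8). Thrombomodulin (Thbd) stood at 571 against 181 CPM (3.16-fold). Ptgis, the prostacyclin synthase, was the member at most 0.5-fold, at 0.359 (interval 0.250 to 0.499), and Procr had no UMI.

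Leukocyte adhesion and chemokine genes showed 8 of 13 at least 2-fold higher and none at most 0.5-fold, with a median of 5.47. The highest was Ccl21a (127-fold), but its 187 UMIs were all in 1 cell. Podxl was 89.5-fold higher in 34 cells, Cx3cl1 16.6-fold in 10 and Mcam 14.8-fold in 26. Ly6a, Ly6c1 and Ly6e, surface proteins abundant on mouse endothelium, stood at 2505, 1224 and 1432 CPM (5.46, 10.4 and 5.47-fold). The selectins Sele and Selp, which endothelium makes on activation, had no UMI. Icam1 was at 1.25 (interval 1.07 to 1.44) and Vcam1 at 0.637 (interval 0.478 to 0.831), with 10.1 CPM of Vcam1 left in the 51 cells with under 3 fibroblast gate genes.

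MHC class I and interferon genes were higher as a group, 8 of 10 at least 2-fold and none at most 0.5-fold, with a median of 4.61. H2-D1 and H2-K1 stood at 5208 and 2979 CPM in endothelial cells, against 725 and 400.4 CPM in other kept cells (7.18 and 7.44-fold). B2m, the shared light chain, was 4.01-fold higher (interval 3.74 to 4.30), and was detected in all 68 cells. Class I genes are alike in sequence, so their single counts are uncertain. In single cells H2-D1 ran from 0 to 184 with a median of 65.5 per 10000.

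Of 14 basement membrane genes, 3 were at least 2-fold higher and none at most 0.5-fold. Their median of 0.899 was below the 1.32 of all genes. The 3 were the collagen receptor Itga1 (21.9-fold, interval 18.5 to 25.8), Col4a1 (2.26-fold) and Col4a2 (2.44-fold). Sparc stood at 3211 against 4611 CPM in all 68, and at 1427 CPM in the 51 cells with under 3 fibroblast gate genes. In that set 6 of the 14 genes were at most 0.5-fold. Immediate early and heat shock genes, which dissociation can induce, had none of 13 past either fold and a median of 0.779, but without the 17 cells 3 were at most 0.5-fold and the median was 0.648. Ier2 was the highest at 1.46 and Klf6 the lowest at 0.696.

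The hedgehog list was low, with none of 13 measured genes at least 2-fold higher, 7 at most 0.5-fold and a median of 0.399. Gli1, the gene that drives the Cre, had 2 UMIs in 2 of the 68 cells, and none in the 51 cells with under 3 fibroblast gate genes. Hhip, a decoy receptor and pathway target, had 6 UMIs in 4 cells (ratio 0.0865, interval 0.0317 to 0.188). Ptch1 was at 124 CPM in all 68 and at 30.4 CPM in the 51, against 116 CPM in other kept cells. The ligand Dhh, made by endothelium in some organs, had 2 UMIs, and Shh and Ihh none.

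The 17 cells with fibroblast gate genes moved some of these counts. Without them, 16 transcription factors had a ratio of 2 or above and 1 of 0.5 or below, and 7 and 2 genes did so in the BMP and TGF-beta list. Of Notch genes 8 were high and none low, and of genes for caveolae and lipid uptake also 8 and none. The junction list had 7 high and 5 low, and the list of vascular tone and clotting 10 high and 2 low. Leukocyte adhesion and chemokine genes counted 8 high and 1 low, and all 10 MHC class I and interferon genes were high. The hedgehog list kept 7 low and none high. No share of all genes past these folds is given for the 51 cells, whose median over all genes was 1.60 and not 1.32. Counts without the 17 cells are therefore a description and are not set against a background.

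**Figure D3:**
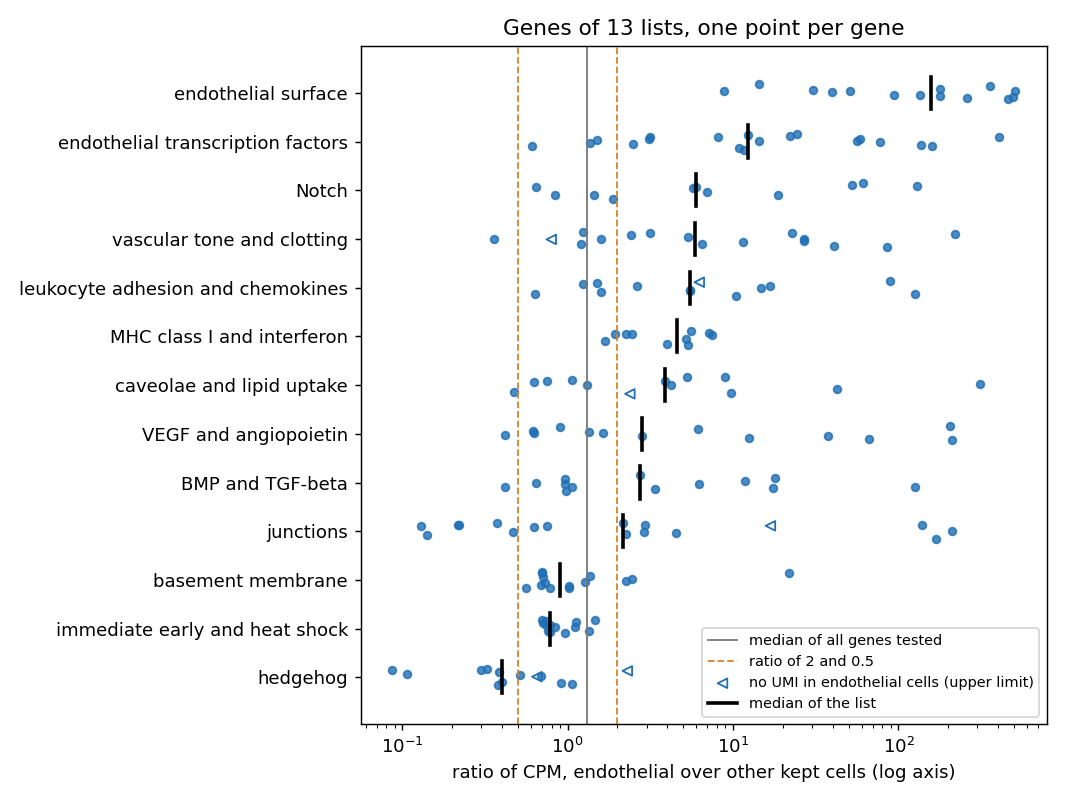
Ratio of CPM, endothelial over other kept cells (log axis), for each measured gene of 13 lists, with list medians (black bars), the median of 1.32 of all 15011 genes (grey line) and the ratios of 2 and 0.5 (dashed). The endothelial surface list lies wholly to the right, and the hedgehog list is the lowest.

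The 68 cells were sorted by 5 lists of endothelial subtypes, each cell going to the list with most UMIs when at least 2 of its genes were detected, a rule set after the data had been seen. This gave 16 aerocyte-like cells (23.5%, interval 14.1 to 35.4), 43 general capillary-like cells (63.2%, interval 50.7 to 74.6), 2 cells led by venous genes and 1 by lymphatic genes. None of the 68 was led by the arterial list (exact upper limit 5.28%), and 6 had no leading list. These classes are ranges of a count, and in 12 of the assigned cells the next of the 5 lists had at least 0.5 times the UMIs of the leading list. The minimum of 2 genes is not specific to endothelium. Of the 9323 other kept cells, 1655 met it for the aerocyte list and 738 for the general capillary list. Some names rest on few UMIs: 1 aerocyte-like cell had 4 UMIs of its list and 557 of the fibroblast list among 13400, another had 4 and 70 among 3653, and 1 general capillary-like cell had 6 and 617 among 12199. In these 3 cells the fibroblast genes go against the name, and all 3 had 3 or more fibroblast gate genes. Leaving out cells with 3 or more fibroblast gate genes left 11 aerocyte-like cells (52468 UMIs) and 34 general capillary-like cells (122206 UMIs). In 6 of these 45 the next list came that close. Median depths were 4793 and 2748.5 UMIs. The capillary lists defined these cells, so their values describe the split. The aerocyte list ran from 54.2 to 122 UMIs per 10000 in aerocyte-like cells and from 0 to 21.9 in general capillary-like cells, and the general capillary list from 0 to 9.83 and from 24.3 to 116. In the 17 cells with fibroblast genes the aerocyte list reached 39.3 and the general capillary list 98.6.

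**Figure D4:**
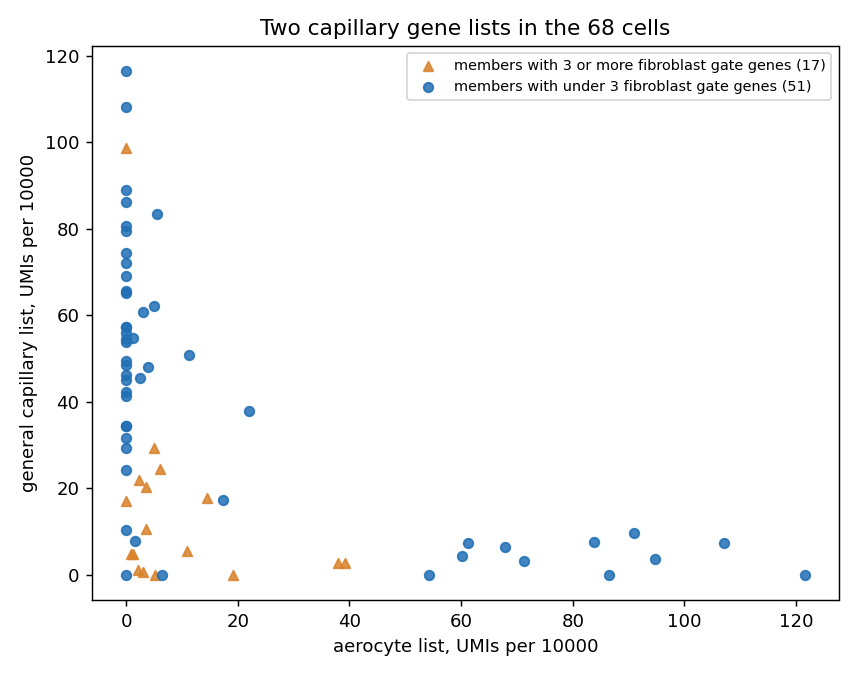
UMIs of the 6-gene general capillary list against UMIs of the 6-gene aerocyte list, both per 10000 UMIs, in each of the 68 endothelial cells, by fibroblast gate genes. Among cells with under 3 fibroblast gate genes, aerocyte-like ones lie at 54.2 or more on the aerocyte list and general capillary-like ones at 21.9 or less.

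Within the lists, Car4 ran from 15 to 55.6 with a median of 31.3 per 10000 in the 11 aerocyte-like cells and from 0 to 11.3 with a median of 0 in the 34 general capillary-like cells. Ednrb had 121 UMIs in 11 of 11 aerocyte-like cells and 8 UMIs in 1 of 34 general capillary-like cells. Apln, the apelin gene, had 26 UMIs in 10 of 11 aerocyte-like cells and none in general capillary-like cells, at least 20.2-fold higher against a floor of 3 UMIs over the set. Its receptor gene Aplnr showed the opposite, with none in aerocyte-like cells and 38 UMIs in 21 of 34 general capillary-like cells. Plvap had no UMI in aerocyte-like cells and 185 UMIs in 31 of 34 general capillary-like cells (ratio at most 0.0378). Gpihbp1 had 6 UMIs in 4 of 11 aerocyte-like cells and 215 UMIs in 34 of 34 general capillary-like cells. Kit, a receptor found on general capillary cells, had none in aerocyte-like cells and 44 UMIs in 21 of 34. Of the other aerocyte genes, Fibin was 26.6-fold and Tbx2 8.02-fold higher, but they also had a UMI in 39.9% and 47.7% of fibroblast cells. All 8 Ednrb UMIs, all 5 Fibin UMIs and 7 of the 9 Tbx2 UMIs of the general capillary-like cells were in 1 cell of 13229 UMIs, which had 29 UMIs of the aerocyte list and 50 of the general capillary list. Without that cell, an alternative added after the data had been seen, Tbx2 was 32.2-fold higher (interval 8.19 to 278), and Ednrb and Fibin had no UMI left in general capillary-like cells. Chst1 had 6 UMIs in aerocyte-like cells and 3 in general capillary-like cells, these again in 1 cell, and the interval of its ratio included 1 (4.66-fold, interval 0.995 to 28.8). Of the general capillary genes, Sema3c and Hilpda had ratios of 0.231 and 0.316.

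Among 1055 genes outside the subtype lists that reached 30 UMIs in the 2 sets together, 106 (10.0%) had a ratio of 2 or above in aerocyte-like cells and 127 (12%) one of 0.5 or below, with a median of 0.964. The 15 genes with the largest and the 15 with the smallest ratios were named, a rule also set after the data had been seen. Ptp4a3, a tyrosine phosphatase, was highest, with 47 UMIs in 10 of 11 aerocyte-like cells and 5 UMIs in 4 of 34 general capillary-like cells (21.9-fold, interval 8.75 to 70.5). Igfbp7, a secreted vascular protein, had 436 UMIs in 11 of 11 aerocyte-like cells and 64 UMIs in 15 of 34 general capillary-like cells. Per 10000, it ran from 60.1 to 109 with a median of 85.1 in aerocyte-like cells and from 0 to 28 with a median of 0 in general capillary-like cells, with no overlap (15.9-fold, interval 12.2 to 21). Of the 64 UMIs in general capillary-like cells, 37 were in that same cell of 13229 UMIs, and the ratio was 33.5 without it. Igfbp7 was not particular to aerocyte-like cells. It had a UMI in 99.7% of fibroblast cells (4165 CPM) and 99.6% of muscle cells (4389 CPM), against 8310 CPM in aerocyte-like cells. The T-box factor Tbx3, a relative of the list gene Tbx2, was 8.73-fold higher (interval 4.97 to 16.2). Phlda1, Clu, Cd24a, Enho, Nhlrc2, Timp3, Sept4, Hspb1, Pmp22, Phlda3 and Plaur lay between 6.08 and 11.6-fold. Clu stood at 19.7 without the cell named above. Cd34, the sialomucin, was found in all 11 aerocyte-like cells and 13 of 34 general capillary-like cells (6.35-fold, interval 3.84 to 10.9). It was also found in 74.6% of fibroblast cells.

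Receptors for VEGF and angiopoietin differed in opposite directions. Kdr stood at 1963 against 622 CPM in general capillary-like cells (3.16-fold, interval 2.32 to 4.30) and its co-receptor Nrp1 at 1601 against 507 CPM (3.16-fold, interval 2.25 to 4.45). Tek, by contrast, had 2 UMIs in 2 of 11 aerocyte-like cells and 59 UMIs in 25 of 34 general capillary-like cells (0.0790-fold, interval 0.00934 to 0.298), and Ptprb had 4 UMIs in 3 of 11 aerocyte-like cells and 153 UMIs in 29 of 34 general capillary-like cells. Flt1 had a ratio of 0.767 with an interval that includes 1 (0.482 to 1.19). The ligand Vegfa had 1 UMI in aerocyte-like cells and 50 UMIs in 22 of 34 general capillary-like cells. The 6 measured genes of that list counted 2 at least 2-fold and 3 at most 0.5-fold.

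The lowest ratio was that of Cd74, the invariant chain of MHC class II, with 1 UMI in 1 of 11 aerocyte-like cells and 301 UMIs in 27 of 34 general capillary-like cells (19.1 against 2463 CPM). The class II chains H2-Ab1 and H2-Aa went the same way, with 3 UMIs and none in aerocyte-like cells and 131 UMIs in 27 and 86 UMIs in 26 general capillary-like cells. Cd74 ran from 0 to 128 with a median of 20.2 per 10000 in general capillary-like cells. It had a UMI in 10.1% of fibroblast cells (median depth 7517 UMIs), 85.9% of epithelial cells and 28.6% of leukocyte cells, against 79.4% of general capillary-like cells, which were shallower. The share in general capillary-like cells was thus far above that in fibroblast cells. Iigp1, an interferon-induced GTPase, had 1 UMI in 1 of 11 aerocyte-like cells and 117 UMIs in 23 of 34 general capillary-like cells. Class I genes differed far less: H2-D1 was at 0.895 (interval 0.795 to 1.01) and B2m at 0.962 (0.791 to 1.17).

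Others among the lowest were the chemokine Cxcl12 (0.0353), Igfbp4, Cd93 (0.0568), Acer2, Ehd1, Ppig, Hmcn1 and the protease Adamts1, with 1 to 4 UMIs each in aerocyte-like cells. Bmp6 had none there and 41 UMIs in general capillary-like cells, and Gja4 none and 60. Among genes of endothelium in general, Egfl7 had a ratio of 1.03, Pecam1 1.05, Cdh5 1.08 and Eng 0.992, with intervals that include 1. So did the interval of Tie1 (0.518-fold, interval 0.233 to 1.04), while those of Ramp2 (1.47-fold, interval 1.26 to 1.72) and Cldn5 (1.31-fold, interval 1.15 to 1.49) lay above 1. Of 12 other surface genes measured, 2 were at least 2-fold higher, Icam2 (2.63-fold, interval 2.09 to 3.32) and Ecscr (2.11-fold, interval 1.58 to 2.81), and 2 at most 0.5-fold, Cd93 and Palmd (0.190-fold, interval 0.0498 to 0.519). Immediate early genes counted 3 of 11 at least 2-fold higher, Dusp1, Egr1 and Klf6, with a list median of 1.51.

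**Figure D5:**
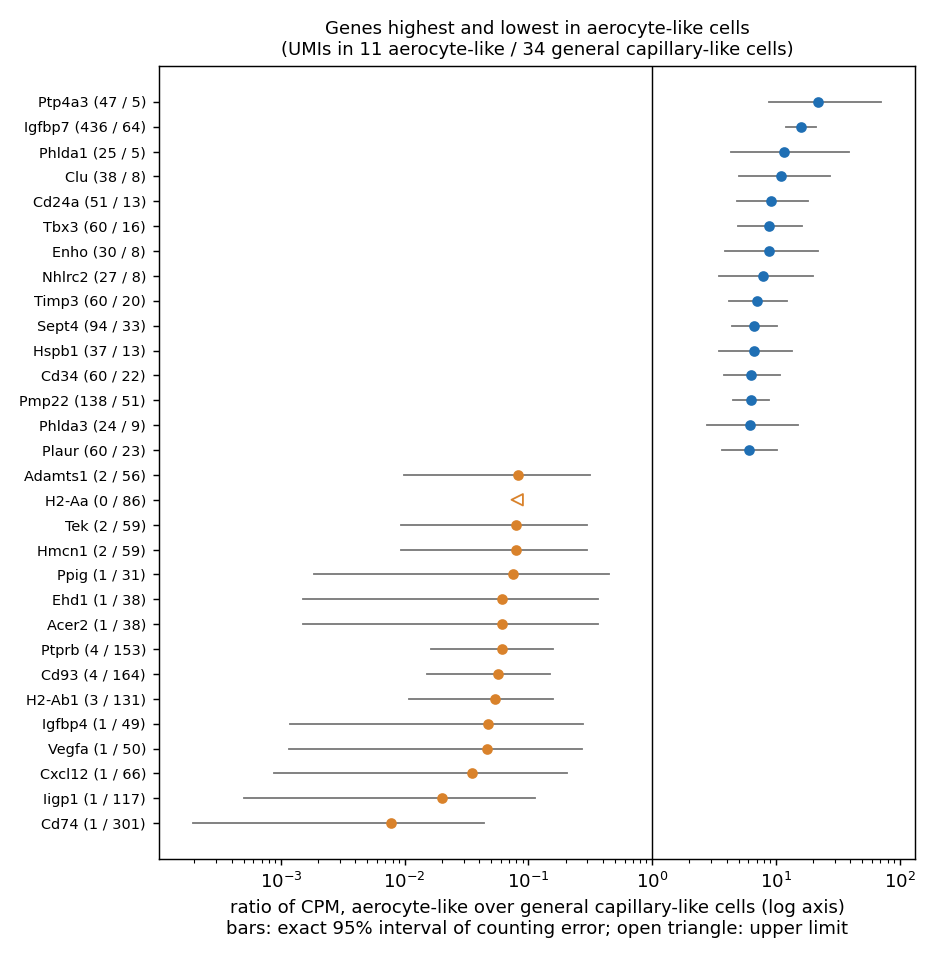
Ratio of CPM, aerocyte-like over general capillary-like cells (log axis), for the 15 genes with the largest and the 15 with the smallest ratios; bars are exact 95% intervals of counting error and the open triangle is an upper limit for a gene without a UMI in aerocyte-like cells. Ptp4a3 (21.9-fold) and Cd74 (0.00774) are the ends of the range.

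Other subtypes were rare. Arterial genes were present without a cell led by them: Gja4 had 86 UMIs in 30 cells and Sox17 52 UMIs in 27 cells, of which the 34 general capillary-like cells held 60 and 37, while Gja5 and Bmx had 1 and 2 UMIs. The 2 cells led by venous genes had 4438 and 6307 UMIs, and the second of them also had 158 UMIs of the alveolar type 1 list. Ackr1 and Selp, defining venous genes, had no UMI. The cell led by lymphatic genes had 3124 UMIs and 187 UMIs of Ccl21a, a lymphatic chemokine gene with near-identical copies, yet Prox1, the defining lymphatic factor, had none in any endothelial cell, and Scrublet marked this cell as a doublet. Lyve1 was not confined to it, with 70 UMIs in 15 of 34 general capillary-like cells. Proliferation genes were found in 1 cell, with 141 of its 19223 UMIs, which also had 4 fibroblast gate genes.

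Egfp, the mark of Cre activity, had 182 UMIs in 22 of the 68 cells (32.4%, interval 21.5 to 44.8). Of these, 162 UMIs in 10 cells lay in the 17 cells with 3 or more fibroblast gate genes, and 20 UMIs in 12 cells in the other 51. Of 10 cells with 5 or more Egfp UMIs, 9 had 3 or more fibroblast gate genes. The level was 889 CPM in the 17 and 101 CPM in the 51, against 1409 CPM in fibroblast cells and 195 CPM in epithelial cells. Among the 17, the cell with most Egfp, 46 UMIs, had 4.77 selecting UMIs per 10000 and 56 mesothelial UMIs. Cells with 19, 14 and 8 Egfp UMIs had 8.83, 2.24 and 3.12 selecting UMIs per 10000 and 115, 557 and 181 fibroblast list UMIs. The rest of the 17 with Egfp had 44.6 or more selecting UMIs per 10000. The 889 CPM is thus not a level of clearly endothelial cells alone. Thinned to 2000 UMIs, Egfp was detected in 18.4% of 38 endothelial cells with under 3 fibroblast gate genes, 19.9% of epithelial cells and 51.9% of fibroblast cells. In leukocyte cells it was 19% of 63. The share in endothelial cells with little fibroblast RNA rested on 7 of 38 cells (interval 7.74 to 34.3). It was not above those of epithelial and leukocyte cells, but these classes were not shown to be free of Egfp expression. Of them, 184 epithelial cells and 9 leukocyte cells had 5 or more Egfp UMIs. Whether Egfp in these endothelial cells was background or expression was not tested, and it was read as neither. TdTomato had 20 UMIs in 15 of the 68 cells, at 52.6 CPM (interval 32.2 to 81.3), against 13.7 CPM in fibroblast cells and 31.1 CPM in epithelial cells. Thinned to 2000 UMIs, it was detected in 3.64% of 55 endothelial cells, 3.49% of fibroblast cells and 6.59% of epithelial cells.

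Pecam1 transcripts were also found outside endothelial cells, in smooth muscle. Of 251 cells with 3 or more Myh11 UMIs, 41 had a Pecam1 UMI, 61 UMIs in all and at most 5 in a cell. In 39 of the 41 it was the sole selecting gene detected. Cdh5, Ramp2, Tie1, Emcn and Kdr had no UMI in any of the 41, while Esam had one in 19 and Calcrl in 5. Of the 210 muscle cells without a Pecam1 UMI, Esam was detected in 60, Ramp2 in 16 and Calcrl in 9. Cdh5 and Kdr were detected in 2 each of the 210, and Tie1 and Emcn in none. Mcam, an adhesion molecule of endothelium and smooth muscle, was detected in 38 of the 41 with Pecam1 (92.7%) and in 128 of the 210 without it (61.0%). Hhip was detected in 3 of the 41 and in 71 of the 210. Median depths were 8600 and 7614 UMIs. These cells were split by Pecam1 itself, so the shares are a description, and the part of depth in them was not tested.

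The rule left out 24 kept cells that had 3 or more of the 6 genes but also an Epcam UMI (23 cells) or a Ptprc UMI (1 cell). They were deep, at a median of 14934.5 UMIs, and 12 had all 6 genes. At least 100 UMIs of the alveolar type 2 list were found in 20 of them, and Scrublet marked 9. Of 2757 erythroid UMIs in all kept cells, 2726 were in 1 of these 24. A further 15 barcodes with 3 or more of the genes fell to the filters, 9 for too few genes and 9 for too much mitochondrial RNA (3 for both), with a median of 693 UMIs.

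In the authors' deposited table of 17 clusters, all 6 selecting genes had their highest mean in cluster 6. In that table the mean was 0.694 for Pecam1, 1.0 for Cdh5, 2.72 for Cldn5 and 1.96 for Ramp2. Smooth muscle genes also had high means there, 61.7 for Acta2 and 9.97 for Myh11 in the authors' deposited table. Mrc1 and Chil3, genes of macrophages, were among the 15 genes of highest fold for cluster 6, given a mean of at least 0.5, in the authors' deposited table.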

How the data were processed

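Cells sorted from mouse lung were measured by droplet-based 3′ sequencing; the kit version differs between the labels and the series text. Per the submitters' processing notes, Cell Ranger 3.0.0 and build mm10 were used. The deposited matrix holds raw UMI counts for 31055 features in 11118 barcodes, 85746975 UMIs in all. A table by cluster, deposited by the authors, holds mean counts (kept as a score per cluster, their scaling not given in the sources used here), log2 fold changes and adjusted p-values, per the file headers, and the test behind them is not given in the sources used here. All columns of sample values were mapped.

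Barcodes with under 500 genes (1296) or over 10% mitochondrial UMIs (1545) were removed. The 68 endothelial cells held 379976 UMIs in total; depth per sample is unknown, since the samples share a matrix. Doublets were marked by Scrublet in scanpy 1.11.5 (rate 0.08; 458 of 9391, 4.88%) and kept. Counts were summed per set and given as CPM; exact Poisson, conditional binomial and Clopper-Pearson 95% intervals cover counting error only. A gene was counted when the 2 sets together gave it at least 30 UMIs and its ratio reached 2 or lay at or under 0.5. A gene with no UMI was set against a floor of 3 UMIs over the set. Named genes were the 20 highest and 12 lowest ratios, up to 4 highest and 2 lowest of each of 13 programme lists with further members chosen after their values were seen, and all subtype markers. The 6 selecting genes were left out of counts. The members and lists were chosen with earlier results of these data known. 1 gene of the lists is not reported here by name. Code was tested on simulated data. Python 3.11.15, numpy 2.4.6, scipy 1.17.1, pandas 2.3.3 and matplotlib 3.10.9 were used.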

Additional observations from a re-analysis of the deposited data

How the results depend on the processing

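With 1 matrix and no map from cells to samples, no replicate could be left out. No paired analysis was possible because cells are not tied to samples. The planned comparison of muscle-bearing endothelial cells with other muscle cells had no value, since there were no such cells (1 appeared with a mitochondrial maximum of 20% or a Myh11 minimum of 1 UMI). The endothelial share was 0.543% without members that had 3 or more fibroblast gate genes. Genes at most 0.5-fold numbered 2636 with levels averaged over cells, and 245 when the interval had to lie past the fold. Genes at least 2-fold higher numbered 516 with at least 30 UMIs required in endothelial cells (of 2352 tested), and 731 when the interval had to lie past the fold. For aerocyte-like over general capillary-like cells, 34 genes were higher and 32 lower by the interval, and 200 were lower with fibroblast-bearing cells kept. Sparc in that comparison then stood at a ratio of 1.03, turned from 0.218. The interval settings, the minimum in endothelial cells and the settings for capillary cells were chosen after seeing the data. The minimum in endothelial cells leaves fewer genes to test and admits them by their endothelial counts alone. For the other changes the cause was not tested. Leaving out fibroblast-bearing members moved the median of all genes by 0.29 on the log2 scale and omitting haemoglobin, surfactant and secretoglobin genes from totals by -0.10. A gene minimum of 1 UMI moved it by 0.58 and one of 100 UMIs by -0.15. The cell filters, doublet removal and a minimum of 4 genes kept every count within 1.5 times the main one. Over all settings, 337 values of single genes moved and 1887 did not, 5 list medians moved and 99 did not, and for capillary genes 25 moved and 526 did not. A gene without a UMI in 1 of the 2 sets compared was counted as not moved whatever its value. The counts of unmoved genes can therefore overstate stability. The small number of cells limits genes with few UMIs most.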
